A study of Mus musculus with 2 samples.

Results

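Fibroblasts low in both wound programmes are the fibroblasts of ulcerated mouse skin that carried little of either RNA programme that marked the other fibroblasts of the same lesions. They were chosen by rule and numbered 408 of 3673 fibroblasts and of 31621 barcodes in all, 232 of 2057 fibroblasts in the library labelled Has2-transgenic and 176 of 1616 in the library labelled wild-type. A barcode entered with at least 200 genes, at least 2000 UMIs (unique molecular identifiers, which count RNA molecules) and at most 15% mitochondrial UMIs, which left 11033 and 14093 barcodes. It was taken as a fibroblast when Col1a1, Col1a2, Col3a1 and Dcn together made up at least 0.5% of its UMIs, with at least 1 UMI of Pdgfra or Lum, and with at most 1 UMI each of Ptprc and Pecam1 and at most 2 of Rgs5. Of these, the cells described here had under 0.05% of UMIs from Il6, Lif, Csf3 and Il11, secreted cytokines, and under 0.1% from Postn, Lrrc15, Tagln, Acta2 and Cthrc1, genes of contractile and matrix-forming wound fibroblasts.

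The study set 1 mouse skin sample labelled with whole-body overexpression of Has2, an enzyme that makes hyaluronan, beside 1 labelled wild type. Ulcerative lesions had been raised in both by adhesive tape, pulled off the skin 40 to 50 times per day over 15 days. The labels give neither promoter nor strain, age or sex, they name the RNA differently (polyA for the transgenic sample and total for the wild-type sample) under 1 shared protocol, and the treatment text opens in the middle of a sentence, so an earlier step shared by both samples may be missing from it. Cells were freed with dispase, accutase and collagenase and captured with a droplet kit that reads the 5' end of each RNA. Each genotype had 1 library, so the genotype cannot be told apart from the animal or the library preparation, no difference has a replicate check, and no test is given. All intervals are exact 95% intervals for counting error only.

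Dermal fibroblasts make the collagen, proteoglycan and hyaluronan of skin and are not uniform in unwounded tissue. Papillary cells lie under the epidermis, reticular cells form the deep dermis, and adventitial or fascial cells that express Pi16 and Dpp4 lie around vessels and between tissue layers. After injury some fibroblasts secrete cytokines and chemokines that recruit leukocytes, and others become contractile myofibroblasts that deposit collagen.

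The label fits the defining markers. After every cell was thinned to 2000 UMIs, Dcn, which encodes the proteoglycan decorin, was found in 99.6% of the low-programme cells of the library labelled Has2-transgenic and in 176 of 176 of those of the wild-type library. Col3a1, a chain of type III collagen, was found in 95.7% and 93.8%, Lum, the proteoglycan lumican, in 59.5% and 44.3%, and the receptor gene Pdgfra in 31.5% and 39.8%. Neutrophil barcodes, 2280 and 4373 in number, had at least 1% of UMIs from S100a8 and S100a9, at least 1 UMI of Csf3r and none of Pdgfra or Lum. Their median depths were 2536.5 and 3447 UMIs before thinning. Dcn was found in 3.16% and 4.16% of them and Col3a1 in 7.98% and 4.37%. Lum and Pdgfra were absent by that choice, which may also lower the shares of other fibroblast genes in these barcodes. The rule used all 4 markers, so these shares describe the cells and support nothing further. The libraries shared 79 barcode sequences, 1 of them among the low-programme cells.

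More cells lay near the limits in the library labelled Has2-transgenic than in the wild-type library. In the library labelled Has2-transgenic the median low-programme cell had 0.0215% of UMIs from the Il6 programme and 0.0222% from the Postn programme, against 0.0951% and 0.137% in its other fibroblasts. In the wild-type library these medians were 0.00892% and 0.00282%, against 0.385% and 0.00733%. The highest low-programme cells lay at 0.0494% and 0.0499% of the Il6 programme, and the nearest fibroblasts above the limit at 0.05001% and 0.0505%. For the Postn programme the nearest cells on either side lay at 0.0981% and 0.1% in the library labelled Has2-transgenic and at 0.0952% and 0.105% in the wild-type library. In the library labelled Has2-transgenic 40 cells lay below the Il6 limit by at most 20% of it and 29 below the Postn limit by as little, against 20 and 1 in the wild-type library. No UMI of the Il6 programme was found in 42 and 73 cells, and none of the Postn programme in 58 and 85. Of the other fibroblasts, 625 were high in the Postn programme alone and 454 in both in the library labelled Has2-transgenic, against 16 and 57 in the wild-type library.

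**Figure D1:**
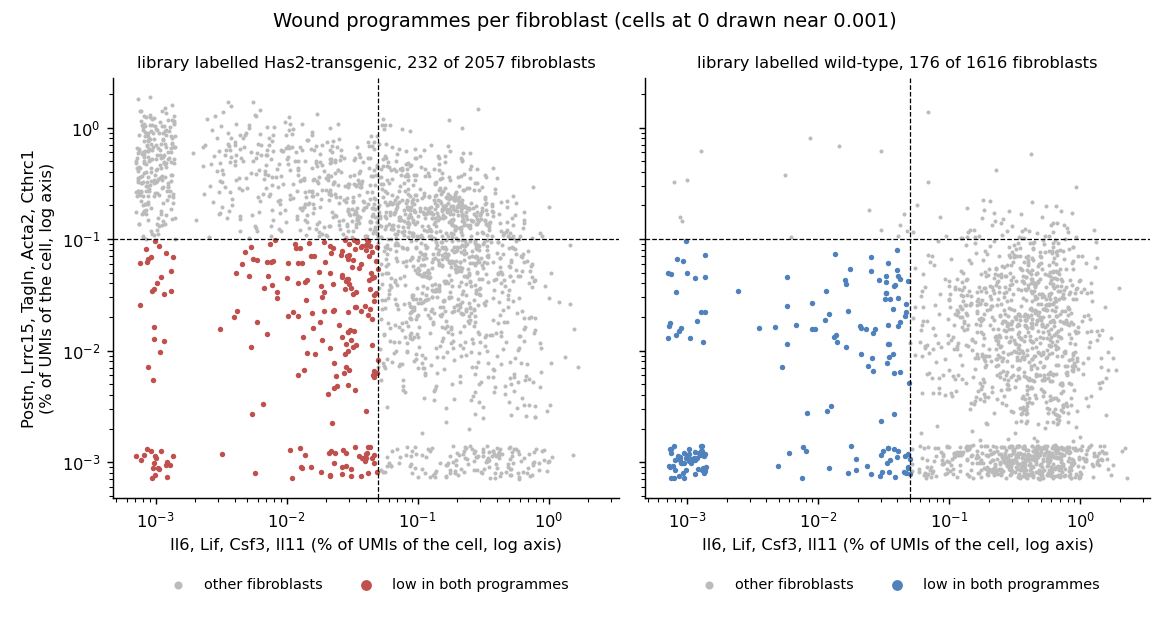
Share of UMIs from the Il6 programme (x axis, percent, log scale) and from the Postn programme (y axis, percent, log scale) in every fibroblast, with the library labelled Has2-transgenic on the left and the wild-type library on the right; coloured points are the 232 and 176 cells below both limits (dashed lines), grey points the other fibroblasts, and cells at 0 are drawn near 0.001. Grey points fill the area above the Postn limit on the left and are few there on the right.

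The low-programme cells made up a like share of fibroblasts in both libraries, 11.3% (9.94 to 12.7) in the library labelled Has2-transgenic and 10.9% (9.41 to 12.5) in the wild-type library, a ratio of 1.04 (0.848 to 1.27). The rest of the fibroblasts differed. Cells high in the Il6 programme alone made up 36.3% and 84.6%, cells high in the Postn programme alone 30.4% and 0.990%, and cells high in both 22.1% and 3.53%. The equal share did not hold under other limits, as halving both limits gave 4.62% and 6.75% and doubling them gave 29.4% and 17.6%.

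The low-programme cells were shallower than other fibroblasts, most of all in the wild-type library. Their median depth was 19307 UMIs (quartiles 12094 and 27740) in the library labelled Has2-transgenic and 9015.5 UMIs (3262 and 30243) in the wild-type library, against 26937 and 27393.5 UMIs in other fibroblasts. In the library labelled Has2-transgenic the low-programme share by depth was 37.1% (26 of 70 cells) below 5000 UMIs, 21.0% between 5000 and 10000, 14.6% between 10000 and 20000 and 7.94% from 20000 up. In the wild-type library it was 44.5% (61 of 137 cells), 24.6%, 8.21% and 5.72%. The share was thus lower at each step in depth in both libraries. At 2000 UMIs a cell passes the Il6 limit only with no UMI of those genes, so depth enters the rule itself. With every fibroblast first thinned to 2000 UMIs and chosen again the shares were 9.19% and 9.53%, and with a minimum of 5000 UMIs the wild-type share was 7.78%.

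**Figure D2:**
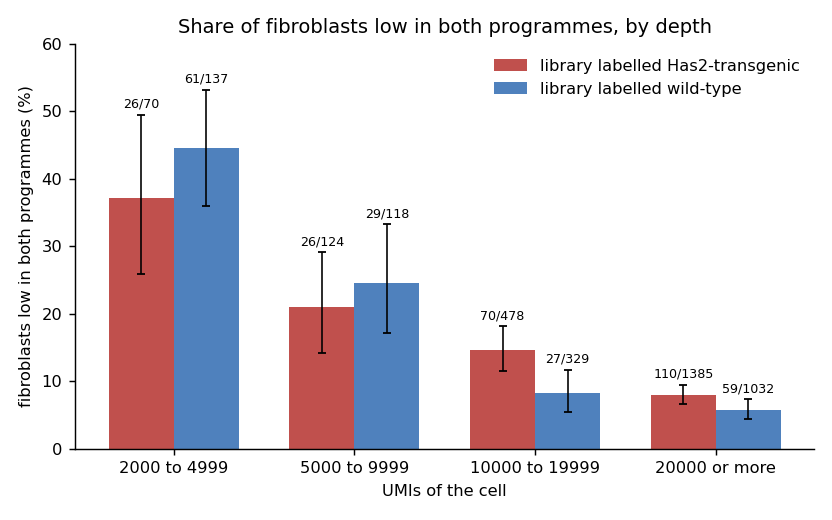
Share of fibroblasts that were low in both programmes (y axis, percent) by UMIs per cell (x axis, 4 ranges), with the library labelled Has2-transgenic left of the wild-type library; lines are exact 95% binomial intervals and the numbers above them are low-programme cells over fibroblasts. The share is highest below 5000 UMIs in both libraries, 37.1% and 44.5%.

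Cells under 5000 UMIs, a split chosen after the data had been seen, numbered 26 and 61 and differed in content from deeper ones in both libraries. They held 1.93% and 5.53% of the UMIs of the low-programme cells, so values pooled over cells rest almost wholly on the deeper ones, whereas a mean over cells gives the shallow ones 11.2% and 34.7% of the weight. Cxcl13 (ENSMUSG00000023078), a chemokine for B cells, was at 2628 CPM in shallow and 255 CPM in deeper cells of the library labelled Has2-transgenic and at 3711 and 774 CPM in the wild-type library, where CPM is UMIs of a gene per 1000000 UMIs of the cells pooled. The shallow cells also had more Ifitm1, an interferon-induced membrane protein gene, 4.53 (3.30 to 6.10) times the level of deeper cells in the library labelled Has2-transgenic and 9.13 (7.61 to 10.9) times in the wild-type library. Chrdl1, which encodes a BMP inhibitor, had ratios of 3.07 and 8.11, and Clu, the chaperone clusterin, 6.70 and 2.63. Ereg, a growth factor of the EGF family, had no UMI in shallow cells of either library, which allows at most 0.241 and 0.128 times the level of deeper cells, and the neutrophil chemokine Cxcl5 had 0.0724 and 0.109 times the level of deeper cells. The shallow cells thus held less Ereg and Cxcl5 and more Cxcl13. Other secreted factors did not all follow. Spp1 had 7.09 and 0.231 times the level of deeper cells, and Il1b 6.77 and 2.04 (0.628 to 5.14) times. The neutrophil markers S100a8 and S100a9 had 5.45 and 4.93 times the level of deeper cells in the library labelled Has2-transgenic. In the wild-type library they had 0.494 and 0.570 times that level.

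In the wild-type library the shallow cells were also nearer to the library labelled Has2-transgenic in several genes. Clec3b, which encodes tetranectin, was at 1406 CPM in shallow and 1071 CPM in deeper cells of the library labelled Has2-transgenic, and at 1419 and 247 CPM in the wild-type library. Fn1, fibronectin, was at 1149.6 and 1263 CPM against 662 and 188 CPM. Sfrp2, a secreted Wnt modulator, was at 411 and 226 CPM against 206 and 26.4 CPM. In Clec3b, Fn1 and Sfrp2, chosen after their values were seen, the deeper cells of the libraries thus stood further apart than the shallow ones did. Has1, a hyaluronan synthase gene, showed no such approach, at 421 and 939 CPM in the library labelled Has2-transgenic against 156 and 438 CPM in the wild-type library. Other genes ran the opposite way. Between the libraries Col1a1 had a ratio of 4.14 in shallow and 2.21 in deeper cells, the receptor gene Cd44 9.49 and 1.11, and the chemokine Cxcl2 30.5 and 2.27. No general approach of the shallow cells is read from these genes.

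Sets of fibroblast subtype genes were shared out much alike in both libraries. With cells thinned to 2000 UMIs, Pi16 (ENSMUSG00000024011), which encodes a secreted peptidase inhibitor, was found in 69.0% of low-programme cells in the library labelled Has2-transgenic and in 68.2% in the wild-type library. Crabp1, a retinoic acid binding protein gene of papillary fibroblasts, was found in 17.7% and 18.2%. Few cells held both, 4.74% and 5.11%, against 64.2% and 63.1% with Pi16 alone, 12.9% and 13.1% with Crabp1 alone and 18.1% and 18.8% with neither. In neutrophil barcodes Pi16 was found in 4.91% and 5.26% and Crabp1 in 0.175% and 0.274%, below the shares in the fibroblasts. The low-programme cells were thus mostly Pi16-bearing with a separate Crabp1-bearing fraction, in like proportions. This was not particular to them. In cells high in the Il6 programme only, Pi16 was found in 76.5% and 59.3% and Crabp1 in 10.5% and 12.9%.

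Of 10 adventitial or fascial genes at least 2 were found in 86.6% and 80.1% of cells, of 8 perivascular stromal genes in 29.7% and 23.3%, of 7 reticular genes in 27.2% and 22.2%, of 8 adipogenic precursor genes in 12.1% and 14.8%, and of 10 papillary genes in 3.88% and 6.25%. In neutrophil barcodes the adventitial set was found in 11.5% and 15.3%, the adipogenic set in 6.97% and 2.54%, and the other 3 in at most 0.526%. Sets for hair follicle mesenchyme, endoneurium and tendon were each found in at most 1 cell of either library, and perineurial genes in 1.72% and 0.568%, near the 1.62% and 1.78% of neutrophil barcodes. In other fibroblasts, by contrast, at least 2 perineurial genes were found in 0 of 1825 and 0 of 1440 cells. Of the adventitial, papillary, reticular and perivascular sets, 9.05% and 11.9% of cells held none and 43.1% and 36.4% held at least 2. Cxcl13 was found in 19.4% of cells in the library labelled Has2-transgenic and in 47.7% in the wild-type library, and Cxcl12, a chemokine of stromal niches, in 36.6% and 52.3%. Igfbp5 ran the other way, in 28.02% and 6.25%, as did Has1, in 62.5% and 31.8%, and Fn1, in 62.5% and 38.1%. Of these 5 genes the highest share in neutrophil barcodes was that of Fn1, 4.74% and 3.75%.

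**Figure D3:**
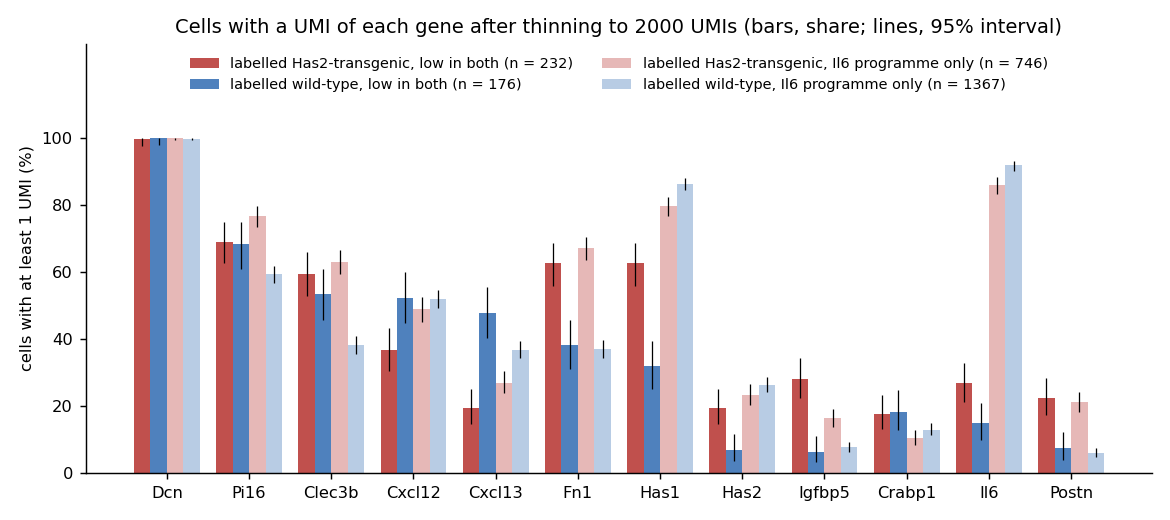
Share of cells with at least 1 UMI of each gene (y axis, percent) after each cell was thinned to 2000 UMIs, for low-programme cells (dark bars, library labelled Has2-transgenic then wild-type library) and cells high in the Il6 programme only (pale bars, same order); lines are exact 95% binomial intervals. Pi16 is at 69.0% and 68.2% in low-programme cells, whereas Cxcl13 is at 19.4% and 47.7% and Has1 at 62.5% and 31.8%; Il6 and Postn were used by the rule.

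RNA of marker genes of other lineages was present at a low level in both libraries. For a share per cell, leukocyte and basal keratinocyte markers were taken without Plac8 and Lcn2, which the sums by list below include. At least 0.1% of UMIs came from these markers in 9.91% of the low-programme cells of the library labelled Has2-transgenic and 7.39% of those of the wild-type library. In other fibroblasts the shares were 6.03% and 4.10%. The 8 macrophage markers summed to 142 and 155 CPM, against 65.9 and 41.3 CPM in other fibroblasts, with 1 cell holding 29.2% and 42.7% of their UMIs. The 8 neutrophil markers summed to 837 and 868 CPM, against 569 and 1088 CPM, and the 5 monocyte markers to 532 and 774 CPM, against 469 and 849 CPM. The 7 suprabasal keratinocyte markers summed to 327 and 73.2 CPM, against 211 and 75.5 CPM, and were spread over 162 and 71 cells with 12.1% and 10.5% in 1 cell, while Krt1, Dsg1a and Lor were at 0 in both libraries. Much of the suprabasal, monocyte and neutrophil sums came from 1 gene each. In low-programme cells of at least 5000 UMIs, which held 98.1% and 94.5% of the UMIs, Sbsn was at 272 and 60.9 CPM. Plac8 was at 495 and 689 CPM there and Lcn2 at 479 and 498 CPM. Whether the RNA of these genes came from other lineages or from the fibroblasts was not tested. The 8 endothelial markers summed to 11.3 and 7.38 CPM and the 8 mural cell markers to 6.33 and 1.23 CPM. The endothelial marker Cldn5 was at 0 in both libraries, and Vwf, Emcn and Lyve1 were also at 0 in the wild-type library. Basal keratinocyte markers, at 77.3 and 1.84 CPM, and erythroid markers, at 411 and 5.84 CPM, came mostly from 1 cell of the library labelled Has2-transgenic each, with 94.6% and 77.4% of the UMIs. The part of this RNA in the results was not tested beyond leaving out, in turn, the 23 and 13 cells with at least 0.1%, every cell with a UMI of Ptprc, Pecam1 or Rgs5, and the cells with the highest doublet scores.

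Between the libraries, the genes that stood furthest apart in the low-programme cells included genes of the matrix, of the interferon response and of growth factor binding. In all 11249 genes reached 20 UMIs in the 2 libraries together, of which 9.07% were at least 2-fold apart, 714 (6.35%) with the higher level in the library labelled Has2-transgenic and 306 (2.72%) with the lower level there. Higher by any amount were 41.6% of genes, with a median log2 ratio of -0.09. As means over cells, where each cell has equal weight, 12.6% were at least 2-fold higher, 3.52% at least 2-fold lower and 58.6% higher by any amount, with a median of 0.13. List counts below are read against these shares, and some ratios of about the size of these medians turned with the weighting. By the rule for named genes the largest ratios were those of Cxcl9, Mfap4, Igfbp5, Iigp1, Lsmem1, Akr1c18, Opcml, Sfrp2, Islr and Fn1. The smallest were those of Cadm2, Hmga2, Cxcl13, H1f4, Cyp7b1, Ccbe1, Steap4, Rad18, Col23a1 and Grem1.

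Genes of the Pi16-type fibroblast were more abundant in the library labelled Has2-transgenic, although the share of cells with Pi16 was alike. All 10 measured members of that list were higher, 7 of them at least 2-fold, with a median log2 ratio of 1.21. Pi16 was at 1751 CPM in the library labelled Has2-transgenic and 814 CPM in the wild-type library, a ratio of 2.15 (interval 2.06 to 2.25). Sema3c, a guidance cue, was at 261 and 84.2 CPM, Cd55, an inhibitor of complement, at 413 and 141 CPM, and Mfap5, a microfibril protein gene, at 1099 and 452 CPM. Efhd1, a calcium-binding protein gene, was at 19.6 CPM from 99 UMIs and 3.38 CPM from 11 UMIs. Ly6c1 was near equal at 1178 and 1164 CPM, and its ratio was below 1 as a mean over cells. With every fibroblast thinned to 2000 UMIs and chosen again, which gave 189 and 154 low-programme cells, the list median was 0.44. List medians and ratios given below with cells thinned are of these cells. Shares of thinned cells keep the 232 and 176 cells.

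Genes of unwounded dermal fibroblasts followed the same order in the pooled values. Of 14 measured, 13 were higher and 9 at least 2-fold, with a median log2 ratio of 1.04. Clec3b was at 1078 and 311 CPM, a ratio of 3.46 (interval 3.24 to 3.70). Scara5, a ferritin receptor, was at 152 and 44.6 CPM, Cd248, endosialin, at 187 and 59.3 CPM, and Entpd2, which cleaves extracellular ATP, at 37.4 and 7.07 CPM. Cd34 was at 292 and 123 CPM. The list median was 1.29 with at least 5000 UMIs per cell, but 0.44 as a mean over cells and 0.20 with cells thinned. Opcml, a cell adhesion gene outside the list, had 149 and 22.8 CPM, a ratio of 6.54 (interval 5.14 to 8.42) that was as large as a mean over cells, and was found in 23.7% and 6.25% of thinned cells.

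The matrix of the low-programme cells differed in proteoglycan, microfibril and fibronectin genes. Fn1 (ENSMUSG00000026193) was at 1261 CPM in the library labelled Has2-transgenic and 215 CPM in the wild-type library, a ratio of 5.87 (interval 5.43 to 6.36). Cells high in the Il6 programme only also stood apart, somewhat less far, at 1311 and 265 CPM. Of 9 small leucine-rich proteoglycans 8 were higher and 5 at least 2-fold, with a median of 1.18, which was 0.58 over genes with at least 100 UMIs and 0.55 with no UMI of Ptprc, Pecam1 or Rgs5 allowed. Aspn, asporin, was at 85.4 and 21.5 CPM, Podn, podocan, at 44.5 and 17.5 CPM, and Lum, which the rule used, at 574 and 254 CPM. Of 15 elastic fibre and microfibril genes 12 were higher and 6 at least 2-fold, with a median of 0.92. They included Mfap4 at 83.7 and 8.30 CPM, a ratio of 10.1 (interval 6.83 to 15.5), Mfap2 at 177 and 36.6 CPM, Fbln5, which links elastic fibres to cells, at 38.4 and 11.4 CPM, and Eln, elastin, at 76.9 and 30.7 CPM.

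By their list medians, collagen genes outside the rule lay close together in the libraries. Of 16 genes of minor fibrillar collagens and of collagen processing and cross-linking, a list that leaves out the chains of the rule, 11 were higher and none at least 2-fold, with a median of 0.07, and of 12 non-fibrillar collagens 7 were higher and 2 at least 2-fold, with a median of 0.06. Col5a1 was at 489 and 334 CPM, with a ratio below 1 under halved programme limits, and the cross-linking enzyme gene Lox at 619 and 725 CPM. Col14a1, a collagen found on fibril surfaces, stood apart from its list at 529 and 93.2 CPM, a ratio of 5.68 (interval 5.04 to 6.42). Col7a1 was at 22.7 and 2.46 CPM, with 67.8% of the UMIs of the library labelled Has2-transgenic in 1 cell. The chains that the rule used to define fibroblasts were further apart, with Col1a1 at 5869 and 2592 CPM (ratio 2.26), Col1a2 at 4856 and 2224 CPM (ratio 2.18) and Col3a1 at 10956 and 6642 CPM (ratio 1.65).

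Of 20 contractile and wound matrix genes outside the rule, 11 were higher and 4 at least 2-fold, with a median of 0.10. Spp1, osteopontin, was at 591 and 115 CPM from 54 and 23 cells, and Fap, fibroblast activation protein, at 33.2 and 15.7 CPM. Tnc, tenascin C, was lower, at 3241 and 6127 CPM, a ratio of 0.529 (interval 0.518 to 0.540). Of 18 metalloproteinases and inhibitors 10 were higher, with a median of 0.31; Mmp2 was at 869.7 and 505 CPM and Timp2, its inhibitor, at 597 and 299 CPM. Mmp13 was at 37.6 and 217 CPM, but 1 cell held 93.2% and 87.4% of its UMIs.

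**Figure D4:**
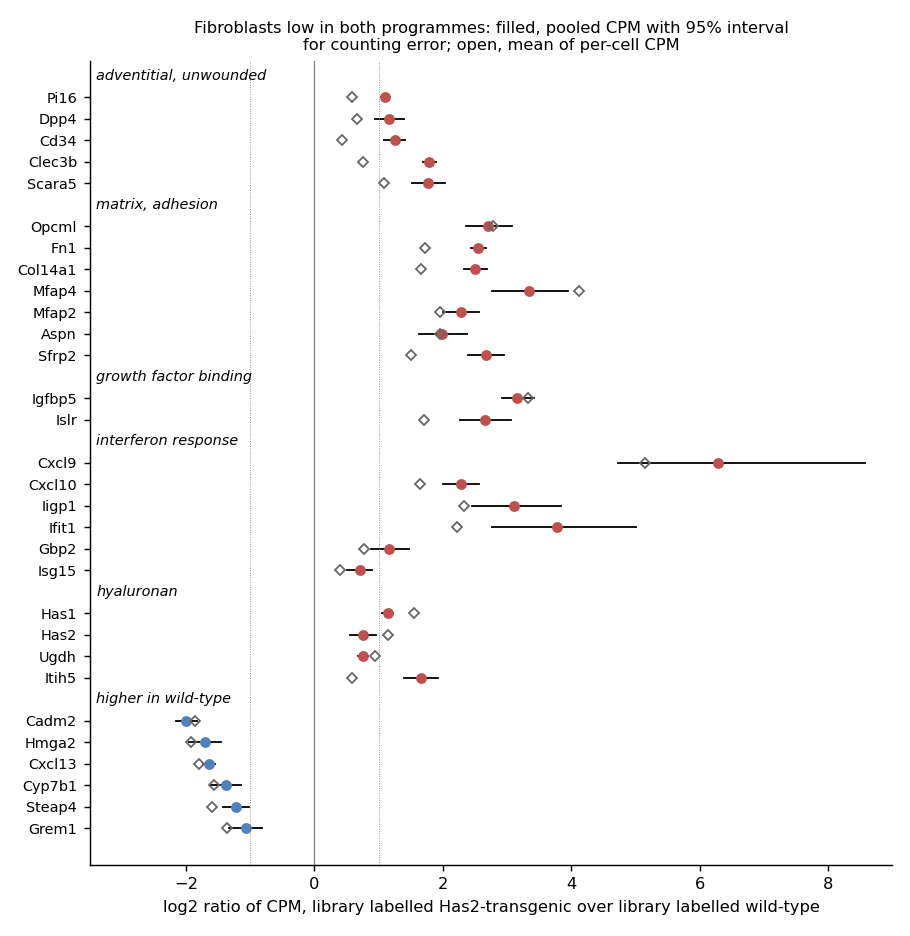
Log2 ratio of CPM in low-programme cells, library labelled Has2-transgenic over wild-type library (x axis), for named genes grouped by role (y axis); filled circles are values pooled over cells with 95% intervals for counting error, open diamonds the ratio of means over cells, and dotted lines mark 2-fold. Clec3b and Cd34 lie nearer 0 as means over cells, whereas Opcml, Igfbp5, Aspn, Has1 and Cxcl13 do not.

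Interferon-response genes were more abundant in the library labelled Has2-transgenic in the pooled values. Of 20 measured, 19 were higher and 12 at least 2-fold, with a median of 1.14. Ifit1, an interferon-induced RNA-binding protein gene, was at 33.6 and 2.46 CPM from 170 and 8 UMIs, Iigp1, an interferon-gamma-induced GTPase gene, at 52.8 and 6.15 CPM, and Gbp2, a guanylate-binding protein gene, at 87.0 and 38.7 CPM. Cxcl9, a T cell chemokine induced by interferon-gamma, was at 71.8 CPM from 363 UMIs in 25 cells and 0.922 CPM from 3 UMIs in 2 cells, a ratio of 77.8 (interval 26.4 to 379), and Cxcl10 was at 185 and 38.1 CPM, with 37.1% of the wild-type UMIs in 1 cell. In pooled CPM the wild-type cells were low in these genes relative to cells high in the Il6 programme only of their own library. Cxcl9 was at 47.5 and 41.0 CPM in cells high in the Il6 programme only, Ifit1 at 29.5 and 26.0 CPM and Iigp1 at 46.7 and 37.2 CPM. The order rests on the pooled values. With cells thinned and chosen again, the list median was 0.19. Shares were taken in the low-programme cells as first chosen, after thinning. At least 2 of the 20 genes were found in 42.7% of them in the library labelled Has2-transgenic and 53.4% in the wild-type library, against 33.8% in neutrophil barcodes of either. In other fibroblasts the shares were 34.5% and 44.5%, below those of the low-programme cells in both libraries. These shares run against the CPM, and no order is read from them.

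Antigen presentation and complement genes were likewise higher in the pooled values. All 11 genes of MHC class I presentation were higher and 3 at least 2-fold, with a median of 0.63; H2-D1 was at 497 and 306 CPM, H2-Q4 at 67.6 and 28.3 CPM and the peptide transporter gene Tap1 at 23.1 and 9.84 CPM. B2m, their shared light chain, was near equal at 1196 and 1064 CPM, with a ratio below 1 as a mean over cells. Of 10 complement genes 9 were higher and 2 at least 2-fold, with a median of 0.70. C3 was at 1912 and 953 CPM and C4b at 564 and 284 CPM. As means over cells 8 of the 11 MHC class I genes were higher and 2 at least 2-fold, with a median of 0.31. The complement median was 0.10 as a mean over cells and -0.017 with cells thinned.

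In the low-programme cells of the library labelled Has2-transgenic most genes of hyaluronan synthesis were higher, Has2 among them. Has2 (ENSMUSG00000022367) was at 151 CPM in the library labelled Has2-transgenic and 89.2 CPM in the wild-type library, a ratio of 1.69 (interval 1.47 to 1.94), and at 119 and 84.9 CPM without the cell with most of its UMIs in each library, which held 21.7% and 6.21% of them. It was found in 19.4% and 6.82% of thinned cells, against 0.526% and 0.0229% of neutrophil barcodes. Cells high in the Il6 programme only had 159.8 and 191 CPM, cells high in both 160.4 and 233 CPM, and cells high in the Postn programme only 109 and 76.9 CPM. Has2 was thus higher in the library labelled Has2-transgenic in low-programme cells and in cells high in the Postn programme only (16 wild-type cells), and lower there in the other 2 classes. Since the gene did not follow the label in every class, the library is called by its label throughout.

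Of 9 synthesis genes 6 were higher, Has1 at least 2-fold, with a median of 0.67. Has1, another hyaluronan synthase gene, was at 929 and 422 CPM, a ratio of 2.20 (interval 2.07 to 2.34). The enzymes that make its sugar substrates included Ugdh at 1252 and 744 CPM, Uap1 at 979 and 616 CPM and Gfpt2 at 1378 and 818 CPM. In cells high in the Il6 programme only these stood close together between the libraries, with Has1 at 1329 and 1369 CPM, Ugdh at 1404 and 1150.0 CPM and Gfpt2 at 1579 and 1619 CPM. Of 9 genes of hyaluronan binding 7 were higher, with a median of 0.19. Itih5, whose family links protein to hyaluronan, was at 135 and 43.0 CPM, and the receptor gene Cd44 near equal at 1092 and 941 CPM, with a ratio below 1 under halved limits. Among 6 genes of degradation 2 were higher and the median was -0.21. Cemip, which drives hyaluronan breakdown, was at 18.2 and 44.6 CPM, but 1 wild-type cell held 78.6% of its UMIs there, and without the top cell of each library the log2 ratio was 0.39, and it was 0.68 with cells thinned.

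Inflammatory mediators that the rule did not use were divided. Of 21 measured 10 were higher and 5 at least 2-fold, with a median of -0.03, and the median was 0.57 as a mean over cells and 0.70 with cells thinned. The neutrophil chemokine Cxcl1 was at 6487 and 3251 CPM and Cxcl2 at 2849.9 and 1191 CPM. Ccl2, a chemokine for monocytes, was at 5687 and 2561 CPM, and Csf1, a macrophage growth factor, at 709 and 306 CPM. All 4 were higher under the transgenic label, both in the pooled values and as means over cells. Cxcl5 was at 2087 and 2339 CPM, with a ratio above 1 as a mean over cells, and Ccl8, another monocyte chemokine, at 225 and 419.7 CPM. Il1b was at 65.7 and 14.5 CPM, beside the leukocyte marker sums given above.

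Homeostatic chemokines leaned to the wild-type library. Of 7 measured 5 were lower in the library labelled Has2-transgenic and 2 at least 2-fold, with a median of -0.25. Cxcl13 was at 300.3 CPM in the library labelled Has2-transgenic and 936 CPM in the wild-type library, a ratio of 0.321 (interval 0.301 to 0.341). Cxcl14, a chemokine of resting skin, was at 1048 and 1535 CPM and Cxcl12 at 308 and 366 CPM. The difference in Cxcl13 was also seen in cells high in the Il6 programme only, at 578 and 818 CPM. Of 19 cytokine receptors none was 2-fold apart, with a median of -0.03. Among them were Il6st, a receptor chain shared by Il6, Lif and Il11 of the rule, at 202 and 219.5 CPM, and Lifr at 29.3 and 29.5 CPM.

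Growth factor modulators were mostly higher. Igfbp5, which binds insulin-like growth factors, was at 401 CPM in the library labelled Has2-transgenic and 44.9 CPM in the wild-type library, a ratio of 8.94 (interval 7.56 to 10.6). In the wild-type library 41.8% of its UMIs came from 1 cell, and leaving it out gave 26.3 CPM. Thinned cells high in the Il6 programme only held Igfbp5 in 16.4% and 7.61%. Igfbp6 was at 459 and 193 CPM, Igfbp7 at 1073 and 707 CPM and Igf1 itself at 38.2 and 44.0 CPM. Of 9 genes of that axis 6 were higher and 3 at least 2-fold, with a median of 0.47. Of 9 Wnt modulators 8 were higher and 4 at least 2-fold, with a median of 0.92, led by Sfrp2 at 230.0 and 36.3 CPM and Dkk3 at 22.9 and 7.69 CPM. Sfrp1 was at 82.7 and 43.7 CPM and Sfrp4 at 67.6 and 37.8 CPM, both with a ratio below 1 as a mean over cells.

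Of 19 TGF-beta and BMP genes 11 were higher, 6 of them at least 2-fold, and 1 was at least 2-fold lower, with a median of 0.22. Ltbp1, which stores latent TGF-beta in the matrix, was at 131 and 55.7 CPM, and Nbl1, a BMP inhibitor gene, at 192 and 83.3 CPM. Grem1, another BMP inhibitor, ran the other way at 44.5 and 93.5 CPM from 23 and 18 cells. Islr, a marker of stromal precursor cells, was at 118 and 18.8 CPM, a ratio of 6.29 (interval 4.82 to 8.32). Of 15 angiogenic and related growth factors 6 were higher, with a median of -0.15, or 0.46 with cells thinned.

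Genes of DNA replication and mitosis stood lower in the library labelled Has2-transgenic. All 15 were lower, 2 at least 2-fold, with a median of -0.59. Top2a, a topoisomerase of dividing cells, was at 40.5 CPM from 30 cells and 84.6 CPM from 21 cells, and Mki67 at 35.0 and 72.6 CPM. Mcm3, of the replicative helicase, was at 25.1 and 44.3 CPM and Tyms, which makes thymidylate, at 34.4 and 60.3 CPM. Few cells carried this signal, as at least 2 of the 15 genes were found in 8.62% and 12.5% of thinned cells, against 0.351% and 0.229% of neutrophil barcodes. H1f4, a linker histone gene, at 47.3 and 126 CPM, and Rad18, of DNA repair, at 27.3 and 63.3 CPM, were among the 10 lowest ratios. Cdkn1a, a cell cycle inhibitor gene, was higher at 492 and 351 CPM, and so was Cdkn1c at 68.4 and 19.1 CPM, in a list of 10 arrest and senescence genes with 4 higher and a median of -0.12, or 0.50 with cells thinned.

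Of 15 antioxidant and metallothionein genes 10 were higher and 2 at least 2-fold, with a median of 0.40. Hmox1, haem oxygenase, was at 1819 and 548 CPM, a ratio of 3.32 (interval 3.16 to 3.50), but neutrophil barcodes held it in 60.6% and 49.8% of thinned cells, against 73.3% and 38.1% of low-programme cells. Gclm, for glutathione synthesis, was at 139.8 and 80.9 CPM and Gsr, glutathione reductase, at 65.7 and 126 CPM. Among the other lists, 8 of 14 hypoxia and glycolysis genes were higher (median 0.12), 6 of 15 of lipid handling (-0.15), 8 of 16 immediate early and heat shock genes (-0.01, or 0.61 with cells thinned) and 3 of 10 of retinoid handling (-0.31). Within these, Apoe was at 205 and 35.1 CPM and Aldh1a3, which makes retinoic acid, at 54.4 and 12.6 CPM. At least 2 immediate early and heat shock genes were found in 84.5% and 49.4% of thinned low-programme cells, a gap that the pooled median did not show. In other fibroblasts these shares were 87.8% and 91.8%. Neutrophil barcodes of the library labelled Has2-transgenic reached 97.7%.

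Of the subtype lists other than the Pi16 type, 5 of 6 reticular genes were higher (median 0.98, or 0.052 under doubled programme limits), 4 of 8 perivascular stromal genes (0.32), 3 of 5 papillary genes (0.10) and 3 of 6 adipogenic precursor genes (0.00). All 4 measured perineurial genes were higher and 3 at least 2-fold, with a median of 2.68. Over the other fibroblasts of each library the perineurial median was 3.27 in the library labelled Has2-transgenic and -0.43 in the wild-type library. Cygb, cytoglobin, was at 93.8 and 36.9 CPM. The genes lowest in the library labelled Has2-transgenic did not belong to 1 list. Cadm2, a cell adhesion gene, was at 83.9 CPM in the library labelled Has2-transgenic and 334 CPM in the wild-type library, a ratio of 0.251 (interval 0.224 to 0.281), and Hmga2, a chromatin protein gene of embryonic and growing cells, at 38.4 and 125 CPM from 20 and 27 cells. Cyp7b1, an oxysterol hydroxylase gene, was at 48.5 and 126 CPM and Steap4, a metalloreductase gene, at 71.6 and 167 CPM.

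Set against the other fibroblasts of their own library, the low-programme cells were chosen on this contrast, so what follows is description alone. In the library labelled Has2-transgenic 5.54% of 15138 genes were at least 2-fold higher in low-programme cells and 5.78% at least 2-fold lower, and in the wild-type library 6.9% and 4.93% of 14064 genes. Higher by any amount were 64.6% and 66.7%. Of 13904 genes measured in both, 164 (1.18%) were at least 2-fold higher in both libraries and 113 (0.813%) at least 2-fold lower in both. The other fibroblasts were not the same cells in both, being mostly of the Il6 programme in the wild-type library and divided among both programmes in the other. The rule's own genes were lower by construction, with Il6 at 148 CPM in low-programme and 1046 CPM in other fibroblasts of the library labelled Has2-transgenic and at 111 and 2798 CPM in the wild-type library, and Postn at 151 and 1474 CPM and at 81.5 and 136 CPM.

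Crabp1 led the genes higher in low-programme cells of both libraries, at 753 CPM against 355 CPM in the library labelled Has2-transgenic and 918 CPM against 321 CPM in the wild-type library. With cells thinned to 2000 UMIs it was found in 17.7% of low-programme and 17.9% of other fibroblasts in the library labelled Has2-transgenic, where cells high in the Postn programme only reached 31.0%, and in 18.2% and 13.8% in the wild-type library. Plin2, which coats lipid droplets, had ratios of 1.82 and 2.11, Fmo2, a flavin monooxygenase gene, 3.12 and 1.74, and Fam162a, a hypoxia-induced gene, 2.47 and 1.63. The glycolytic gene Eno1 had 1.52 and 1.55, in a list of 15 hypoxia and glycolysis genes with 13 and 10 higher and medians of 0.43 and 0.27. Hmgb2, a chromatin protein gene of dividing cells, had 1.57 and 1.69, and of 15 replication and mitosis genes 14 and 15 were higher, with medians of 0.57 and 0.70. All genes had medians of 0.14 and 0.17. The list medians of division and of glycolysis thus lay above that of all genes in both libraries in the pooled values. Shares of thinned cells did not follow them: at least 2 of 8 hypoxia-induced and glycolytic genes were found in 50.9% of low-programme and 51.4% of other fibroblasts in the library labelled Has2-transgenic and in 27.3% and 59.0% in the wild-type library, and at least 2 replication and mitosis genes in 8.62% and 9.42% and in 12.5% and 13.3%. No order is read from these shares.

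Penk, which encodes enkephalin, led the genes lower in low-programme cells, at 52.8 CPM against 171 CPM in the library labelled Has2-transgenic and 81.5 CPM against 408 CPM in the wild-type library. Csf2, GM-CSF, had ratios of 0.377 and 0.240, Vcam1, which binds leukocyte integrins, 0.356 and 0.402, and Serpine2, a protease inhibitor gene, 0.299 and 0.441. Cilp, a cartilage matrix protein gene, and Sfrp4, a Wnt modulator, had 0.551 and 0.378, and 0.556 and 0.499. Small leucine-rich proteoglycans were lower in 8 of 10 and 9 of 9 genes, with medians of -0.72 and -0.64.

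Other lists lay further apart between the libraries, whose other fibroblasts differ in make-up as given above. Non-fibrillar collagens had medians of -0.97 in the library labelled Has2-transgenic and -0.28 in the wild-type library, fibrillar collagens -0.60 and 0.06, and Wnt modulators -1.11 and -0.28. Inflammatory mediators outside the rule had -0.17 and -0.91, with Cxcl1 at 6487 CPM against 8207 CPM in the library labelled Has2-transgenic and 3251 CPM against 10909 CPM in the wild-type library. Hyaluronan synthesis genes had medians of 0.18 and -0.41. Has1 was at 929 CPM against 919.7 CPM in the library labelled Has2-transgenic and 422 CPM against 1346 CPM in the wild-type library. Interferon genes had 0.32 and -0.84.

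**Figure D5:**
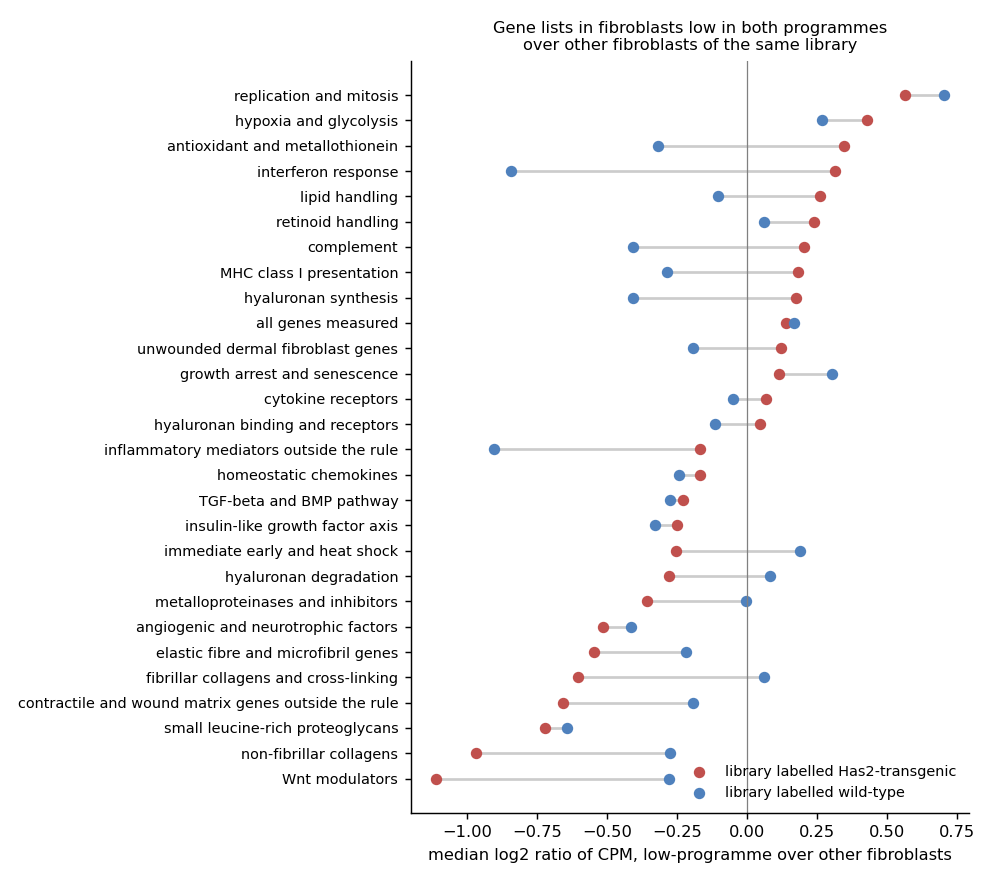
Median log2 ratio of CPM in low-programme cells over other fibroblasts of the same library (x axis) for each functional gene list (y axis), with the library labelled Has2-transgenic in red and the wild-type library in blue. Replication and glycolysis lists lie right of all genes measured (0.14 and 0.17) in both libraries in these pooled values, whereas interferon genes lie at 0.32 and -0.84 and non-fibrillar collagens at -0.97 and -0.28.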

How the data were processed

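The files hold UMI counts per gene and barcode for 1 library of each genotype, deposited by the authors as filtered matrices which Cell Ranger 9.0.1 had made against GRCm39, per the file headers and the submitters' processing notes. All 408 low-programme cells came from these counts. Low-programme cells labelled Has2-transgenic held 5055625 UMIs and wild-type ones 3252467. The matrices list 33696 genes, and 26 repeated symbols were left out. Levels are UMIs of a gene summed over cells, divided by all UMIs of those cells (CPM), with exact 95% Poisson intervals, exact conditional intervals for ratios and Clopper-Pearson intervals for shares. Log2 ratios had 0.5 UMI added. Genes needed 20 UMIs over the cells compared. Cells were thinned at random to 2000 UMIs for shares of cells with a UMI. For list medians and ratios with cells thinned, the low-programme cells were chosen again after thinning. Beside the genes of the rule, the markers and Has2, genes were named by rule: of each list the 2 to 4 with the largest ratio and at least 100 UMIs, and 10 in each direction with at least 100 UMIs, 50 CPM on the higher side and at most 25% of those UMIs in 1 cell; mitochondrial, ribosomal, sex-linked, immune receptor and haemoglobin genes and unnamed models were left out. Genes named outside that rule, and those with the shallow cells, were chosen after their values were seen. The cells, the 52 gene lists and the rule were chosen with earlier results of these data known. Scrublet's automatic call marked 0% and 0.00588% of barcodes and so had not worked; no doublet was removed in the values reported, and removal of the 855 and 1156 barcodes with the highest scores was an alternative. The split at 5000 UMIs and the 0.1% limit on other lineages were chosen after the data had been seen. The steps were tested on simulated counts. Coordinates are not given, since the annotation at hand is of another build. Python 3.11.15, numpy 2.4.6, scipy 1.17.1, pandas 2.3.3, scanpy 1.11.5 and matplotlib 3.10.9 were used.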

Additional observations from a re-analysis of the deposited data

Results flagged for a closer look

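Among the subtype and functional lists with at least 5 measured genes in both libraries, 4 pointed in opposite directions in the 2 libraries when low-programme cells were set against the other fibroblasts of their own library, each by a median log2 ratio of at least 0.25. Papillary genes had a median of -0.71 in the library labelled Has2-transgenic and 0.67 in the wild-type library. Adventitial and fascial genes of the Pi16 type had 0.74 and -0.25. Interferon-response genes had 0.32 and -0.84, and antioxidant and metallothionein genes 0.35 and -0.32. These differences were not tested, since each genotype had 1 library, and the rule chose the cells on this contrast. The other fibroblasts also differed in make-up, with 30.4% of all fibroblasts high in the Postn programme only in the library labelled Has2-transgenic and 0.990% in the wild-type library.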

How the results depend on the processing

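No paired analysis was possible because each genotype had 1 library, and for the same reason no replicate could be left out. Of 374 recomputed list medians 360 stayed within 1.5-fold of the value reported, as did 27 of 46 gene counts, and 1383 of 1983 recomputed ratios of 185 named genes stayed within their counting interval. The count of medians overstates stability, since some settings could hardly move one. Centring on the median gene, at -0.09, shifted every list by the same small amount. A mitochondrial limit of 10% left 231 and 176 cells. Most medians that moved did so with cells thinned and chosen again. In 86 recomputed values, of 49 genes, the log2 ratio turned to the other side of 0, 8 of them for genes at least 2-fold apart in the values reported, which are printed here. The cause of each change below was not tested. A minimum of 5000 UMIs gave a wild-type share of 7.78%. Halved programme limits gave shares of 4.62% in the library labelled Has2-transgenic and 6.75% in the wild-type library, 189 genes at least 2-fold lower than in other fibroblasts in both libraries, and a log2 ratio between libraries of 0.60 for Pgf. Doubled limits gave shares of 29.4% and 17.6%, 481 genes at least 2-fold lower in the library labelled Has2-transgenic, 56 and 43 genes higher and lower than in other fibroblasts in both libraries, 0.052 for the reticular list and -0.063 for Mgp. With the highest doublet scores left out, 97 genes were higher than in other fibroblasts in both libraries. With no UMI of Ptprc, Pecam1 or Rgs5 allowed, the small proteoglycan list was at 0.55. With cells thinned to 2000 UMIs and chosen again, the share in the library labelled Has2-transgenic was 9.19%, 438 genes were higher and 149 lower there, and 33 were higher than in other fibroblasts in both libraries. List medians were then 0.44 (Pi16 type), 0.20 (unwounded dermis), 0.70 (inflammatory mediators), -0.017 (complement), 0.19 (interferon), 0.50 (senescence), 0.61 (immediate early) and 0.46 (angiogenic), and gene ratios 0.68 (Cemip), -0.21 (Fabp5), -0.15 (Igfbp4) and -0.18 (Serpine2). As means over cells, 1420 genes were higher, 199 were lower than in other fibroblasts in both libraries, and medians were 0.44 (unwounded dermis), 0.57 (inflammatory mediators) and 0.10 (complement). With at least 100 UMIs per gene, 263 genes were higher and 59 lower, 46 and 42 differed from other fibroblasts in both libraries, and the small proteoglycan list was at 0.58. With no minimum the counts were 2337, 1931, 2195 and 185. Without the cell with most UMIs of the gene, Cemip was at 0.39. Leaving out cells with other lineages' markers, an alternative added after the data had been seen, gave 100 genes higher than in other fibroblasts in both libraries and -0.28 for Fabp5. The median of all genes was -0.09 in the values reported, 0.13 as means over cells and 0.10 with cells thinned. Depth limits most the 61 wild-type cells under 5000 UMIs.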
